A study of Mus musculus with 9 samples.

Results

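The comparison described here is between exosomes collected after 48 h of silica and exosomes collected after 24 h of silica. It rests on the 6 libraries of the 9 in the series that carry those labels, 3 at each time, taken by their titles. The cells were RAW264.7, a mouse macrophage line, grown in DMEM with fetal bovine serum. The 3 remaining libraries came from untreated cells of the same line and medium, and their values are given beside the others; for how long the untreated cells were cultured was not given. Silica is the mineral dust that causes silicosis, a scarring disease of the lung in which macrophages take up the particles. Exosomes were collected by ultracentrifugation, RNA was taken with Trizol, and small RNA was sequenced on the BGISEQ-500. All libraries come from a single cell line. The submitters describe the 3 libraries per group as independent repeats, and the p-values below set differences against the spread between those repeats. In the edgeR and limma fits that spread was estimated over all 9 libraries, the untreated ones included.

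A microRNA (miRNA) is cut from a hairpin precursor that has a 5p and a 3p arm. Usually a single arm is loaded into an Argonaute protein and guides it to messenger RNAs, mostly by pairing of the seed, bases 2 to 8 of the mature miRNA. Cells pack miRNAs into exosomes, small vesicles released into the medium, in proportions that need not match those in the cell. A vesicle preparation is a bulk sample, in which fewer vesicles of a kind and less RNA per vesicle cannot be told apart.

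The sequences below belong to miRNAs named in the comparison, none of which had an edgeR adjusted p under 0.05. The seed is in capitals, and the sequences are those of RefSeq for GRCm38.p6, 5′ to 3′. They are a selection from those described below. Those of the first set had positive log2 fold changes of 48 h over 24 h, and the miR-29 members in it share a seed.
miR-674-3p: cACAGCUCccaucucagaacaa
miR-24-3p: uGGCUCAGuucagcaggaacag
miR-22-3p: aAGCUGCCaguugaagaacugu
miR-365-3p: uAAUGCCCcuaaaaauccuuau
miR-19a-3p: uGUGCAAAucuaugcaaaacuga
miR-29a-3p: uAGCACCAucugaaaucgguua
miR-29b-3p: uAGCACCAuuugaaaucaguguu
miR-29c-3p: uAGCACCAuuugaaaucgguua
miR-532-3p: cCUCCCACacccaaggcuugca
Those of the second set had negative log2 fold changes, and the last pair in it comes from neighbouring hairpins of an imprinted cluster.
miR-2137: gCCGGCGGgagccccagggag
miR-139-5p: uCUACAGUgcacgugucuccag
miR-149-5p: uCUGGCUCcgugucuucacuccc
miR-191-3p: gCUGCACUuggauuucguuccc
miR-451a: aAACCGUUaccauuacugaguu
miR-379-5p: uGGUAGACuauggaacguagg
miR-411-5p: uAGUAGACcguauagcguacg

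The silica libraries held 2158418 to 8331451 counts of mature miRNA, which made up 28.0% to 44.7% of their counted reads. Of the 1101 mature miRNAs listed in the series, 387 were listed in all 6 silica libraries. The correlation of log2 CPM across miRNAs, which are not independent replicates, was 0.914 to 0.926 within 24 h, 0.901 to 0.921 within 48 h and 0.822 to 0.942 between the times. CPM is the count scaled to a fixed total of mature miRNA (counts per 1e6) after TMM scaling. Library 2 of 48 h held the most reads and correlated best with library 2 of the untreated group (0.969), so results that rest on it are given without it as well. The macrophage list, 8 miRNAs that macrophages are known to carry, was listed in full. The summed level of its 7 tested members was 71502 to 84175 CPM at 24 h, 86045 to 108549 CPM at 48 h and 75737 to 105765 CPM in untreated. Nearly all of that sum was miR-146a-5p, a brake on inflammatory signalling, and miR-21a-5p, an abundant growth-linked miRNA, while miR-223-3p, a defining miRNA of myeloid cells, stood at only 143 to 184 CPM at 24 h and 44.7 to 152 CPM at 48 h.

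No mature miRNA passed the test between 48 h and 24 h. Of 453 miRNAs tested with edgeR's quasi-likelihood test, 0 (0%) had a Benjamini-Hochberg adjusted p under 0.05, and 44 (9.71%) had an unadjusted p under 0.05, of which 25 were higher and 19 lower at 48 h. DESeq2 called 6 miRNAs from the same counts, 2 higher and 4 lower at 48 h. In 94 miRNAs (20.8%) the libraries of the times did not overlap, 47 (10.4%) with every 48 h library above every 24 h library and 47 (10.4%) with every one below. The count of 94 was 187 without library 2 of 24 h and 182 without library 3 of 48 h, settings added after the data were seen. The median log2 fold change over the tested miRNAs was 0.14, so the fold changes below are to be read against that shift, and it was -0.14 without library 2 of 48 h, 0.01 with upper-quartile factors, 0.004 with a replicate block and 0.36 when scaled to all counted reads. Across miRNAs the fold changes had a median standard error (SE) of 0.83 on the log2 scale, and the biological coefficient of variation (the square root of edgeR's common dispersion) was 0.756.

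The miRNAs named next are the 10 of lowest p in each direction among those with a mean of at least 10 CPM. On the higher side they included the abundant miR-24-3p and miR-22-3p and members of the miR-29 and miR-17-92 groups. On the lower side they included miR-139-5p and miR-451a, and the imprinted miR-379-5p.

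**Figure D1:**
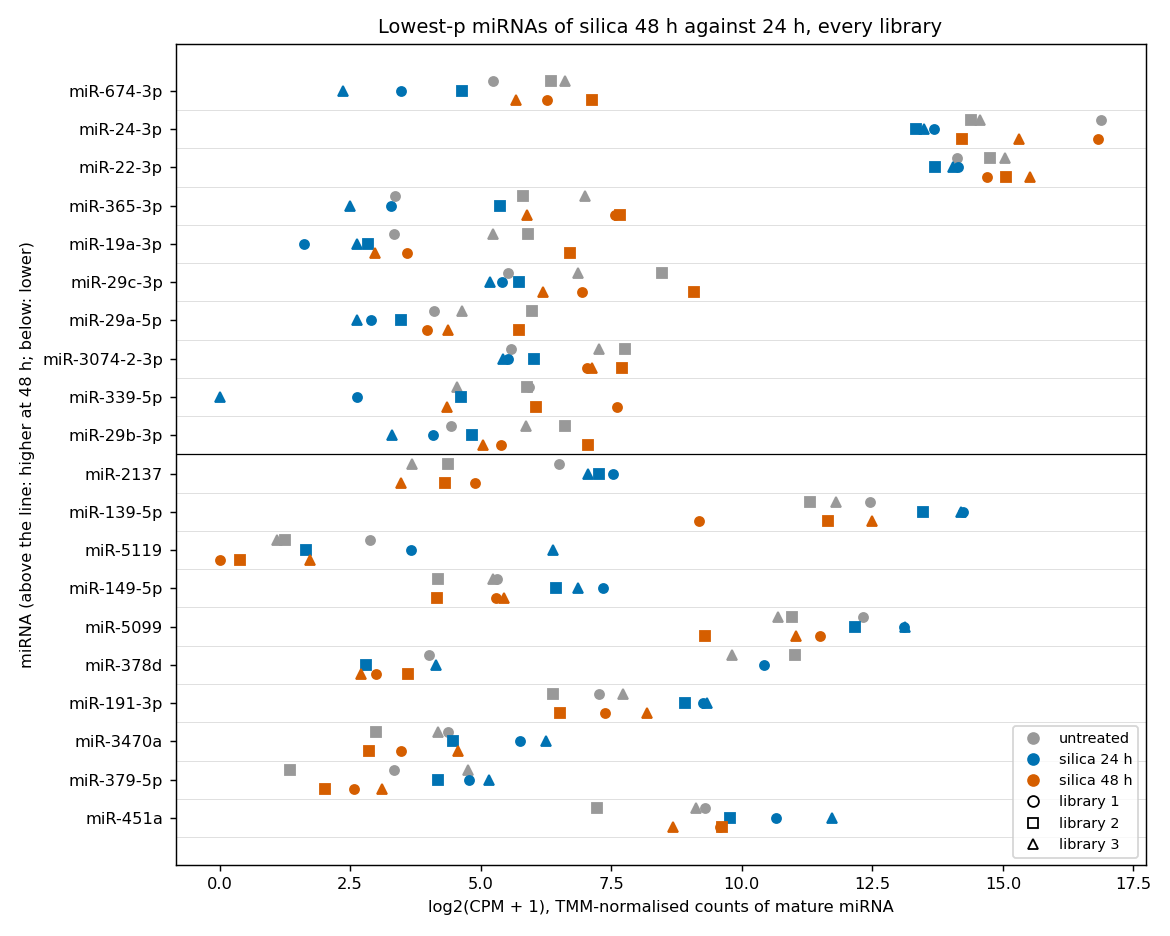
Levels of the 20 miRNAs of lowest p (10 higher and 10 lower at 48 h) as log2(CPM + 1) in each of the 9 libraries, with colour for the group and shape for the library number. In 9 of the 10 above the line and 7 of the 10 below it the 24 h and 48 h libraries do not overlap.

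miR-674-3p stood at 10.1, 24.0 and 4.15 CPM in the 24 h libraries and at 76.0, 138 and 50.0 CPM in the 48 h libraries. The lowest 48 h library was above the highest 24 h library, and the untreated libraries, at 36.9, 79.9 and 97.2 CPM, were all above those of 24 h. The log2 fold change was 2.77 (SE 0.75, n = 3 a group) with an edgeR adjusted p of 0.404, and it was 3.60 without library 2 of 24 h. miR-674 comes from a hairpin at chr2:117185127-117185226 (GRCm38).

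miR-24-3p, a miRNA of the miR-23/27/24 clusters that acts on cell-cycle genes, stood at 13050, 10271 and 11516 CPM at 24 h. At 48 h it stood at 116215, 18912 and 40698 CPM, all above the 24 h libraries but spread over a wide range, with library 1 the highest. The untreated libraries were as uneven, at 121185, 21399 and 24142 CPM. The log2 fold change was 2.34 (SE 0.75, edgeR adjusted p = 0.404), and 1.43 without library 1 of 48 h.

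miR-22-3p stood at 18122, 13245 and 16858 CPM at 24 h and at 26506, 34098 and 46879 CPM at 48 h. The groups did not overlap, and the log2 fold change was 1.16 (SE 0.37) with an edgeR adjusted p of 0.404. Its hairpin lies at chr11:75463716-75463810, in an exon of Mir22hg. In untreated exosomes it stood at 17723, 27464 and 33766 CPM, a range that overlapped both times.

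miR-365-3p stood at 8.79, 40.3 and 4.67 CPM at 24 h and at 189, 203 and 57.8 CPM at 48 h (log2 fold change 3.05, edgeR adjusted p = 0.405), and the fold change was 4.45 without library 2 of 24 h. miR-339-5p stood at 5.17, 23.5 and 0 CPM at 24 h and at 194, 65.4 and 19.6 CPM at 48 h, so its groups overlapped by a single library of each time. Its log2 fold change was 3.24, and 2.21 without library 1 of 48 h, 5.04 without library 2 of 24 h and 2.58 without library 3 of 24 h. miR-3074-2-3p stood at 45.2, 63.8 and 42.0 CPM at 24 h and at 131, 207 and 140 CPM at 48 h. Its hairpin at chr8:84208825-84208907 lies on the minus strand across from Mir24-2 on the plus strand. Whether the deposited counts used the strand of a read was not stated, so miR-3074-2-3p and the miR-24-2 arms cannot be told apart with certainty.

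miR-2137 had the lowest p of the miRNAs with at least 10 CPM. It stood at 185, 154 and 131 CPM at 24 h and at 28.6, 18.9 and 10.1 CPM at 48 h. The groups were far apart, and the untreated libraries stood at 89.0, 19.8 and 11.8 CPM, with library 1 between the times. The log2 fold change was -3.03 (SE 0.80, edgeR adjusted p = 0.404). Its hairpin lies in an intron of Zfp185 at chrX:72992079-72992144.

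miR-139-5p, known as a tumour suppressor and encoded in an intron of Pde2a at chr7:101475376-101475443, stood at 19281, 11275 and 18849 CPM at 24 h. At 48 h it stood at 578, 3221 and 5784 CPM. Every 48 h library was below every 24 h library, and the untreated ones, at 5640, 2514 and 3566 CPM, lay in the 48 h range. The log2 fold change was -2.37 (SE 0.70, edgeR adjusted p = 0.404), and -3.0 without library 3 of 48 h.

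miR-149-5p, from an intron of Gpc1 at chr1:92850378-92850443, stood at 161, 85.7 and 116 CPM at 24 h and at 38.1, 16.9 and 42.4 CPM at 48 h (log2 fold change -1.90, edgeR adjusted p = 0.404). miR-5099 stood at 8869, 4580 and 8944 CPM at 24 h and at 2878, 627 and 2099 CPM at 48 h (log2 fold change -2.0, edgeR adjusted p = 0.404). miR-191-3p, the passenger arm of miR-191, stood at 614, 479 and 645 CPM at 24 h and at 166, 90.5 and 289 CPM at 48 h (log2 fold change -1.67, edgeR adjusted p = 0.413). In all 3 the times did not overlap, and the main arm miR-191-5p, at 20055, 22831 and 22759 CPM at 24 h, overlapped with 20235, 25549 and 11980 CPM at 48 h.

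miR-5119 and miR-378d were uneven within 24 h, and their groups overlapped. miR-5119 stood at 11.6, 2.15 and 82.4 CPM at 24 h and at 0, 0.31 and 2.30 CPM at 48 h, a log2 fold change of -5.17 that was -2.95 without library 3 of 24 h, -4.53 without library 1 of 48 h and -6.99 without library 3 of 48 h. miR-378d stood at 1379 CPM in library 1 of 24 h, at 5.97 and 16.6 CPM in the others and at 5.53 to 11.1 CPM at 48 h, a log2 fold change of -5.88 that was -0.42 without library 1 of 24 h. It was also high in untreated libraries 2 and 3, at 2081 and 900.0 CPM, and reads of near-identical miR-378 copies may be split between them. miR-3470a, at 53.2, 21.2 and 74.6 CPM at 24 h and 10.1, 6.29 and 22.8 CPM at 48 h, overlapped too, and its log2 fold change of -1.92 was -2.61 without library 3 of 48 h.

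The 10 most abundant miRNAs of the silica libraries had smaller fold changes, miR-24-3p apart. let-7c-5p, of the let-7 family that restrains growth and promotes differentiation, was the first of them, at 148035, 118342 and 154406 CPM at 24 h and 145774, 54555 and 100069 CPM at 48 h. miR-99a-5p stood at 64571, 65387 and 119782 CPM at 24 h and 88126, 62688 and 93073 CPM at 48 h. miR-23a-3p was lower in every 48 h library, at 73022, 77987 and 61257 CPM against 92229, 80683 and 84706 CPM, a log2 fold change of -0.28. The libraries overlapped for the rest, miR-222-3p, miR-146a-5p, miR-27a-3p, let-7b-5p, miR-27b-3p and miR-21a-5p, with log2 fold changes of -0.43 to 0.66.

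The groups of related miRNAs are described by their counts and medians, which carry no test; 0 members of any list had an adjusted p under 0.05. A count of members in which the libraries did not overlap is to be read against 10.4% in each direction over all miRNAs. Such a count cannot go down when a library is left out, and over all miRNAs the share in either direction was then 24.5% to 41.3%.

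**Figure D2:**
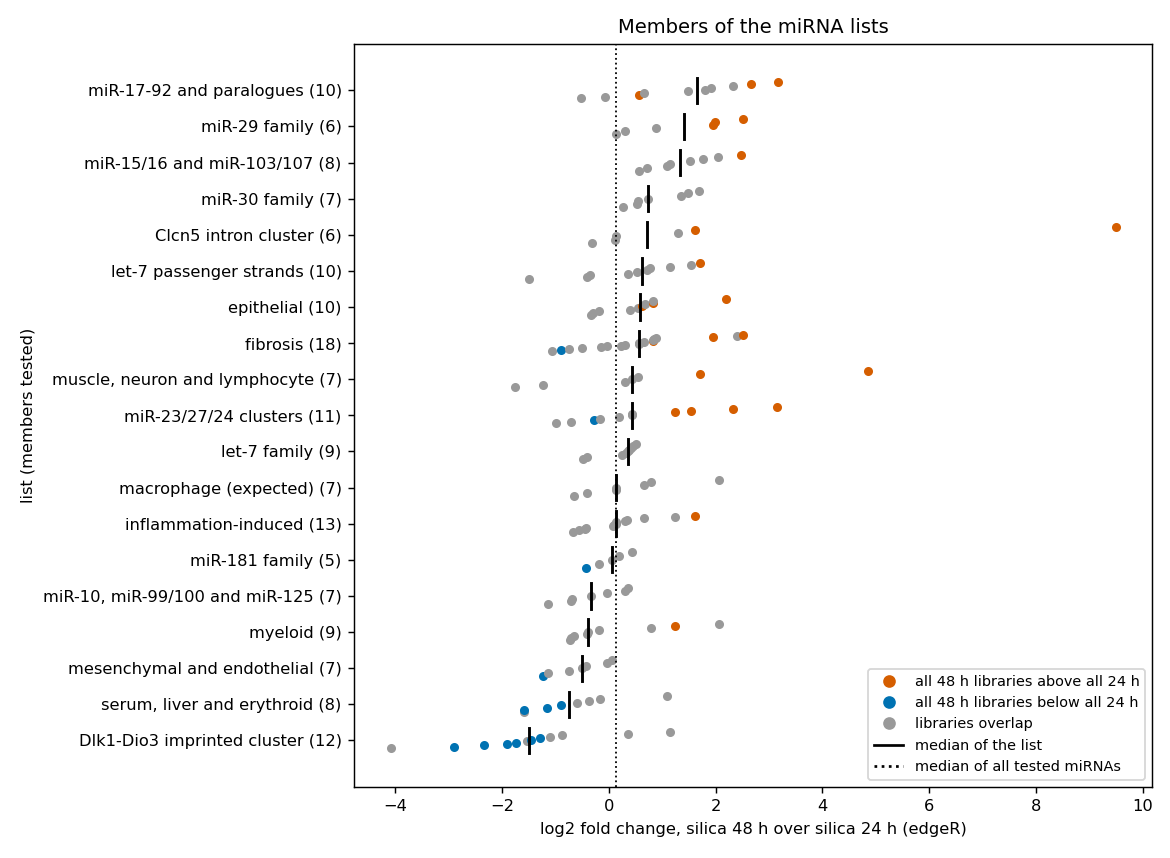
log2 fold change (silica 48 h over silica 24 h, edgeR) of the tested members of 19 lists, with a point for each miRNA, with the median of each list as a bar and the median of all tested miRNAs (0.14) as a dotted line. The miR-17-92 list has the highest median, 1.65, and the Dlk1-Dio3 list the lowest, -1.50.

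The miR-29 family restrains collagen and other matrix genes and is a known regulator of fibrosis. All 6 of its tested members had positive log2 fold changes, with a median of 1.42, and 3 had libraries that did not overlap. miR-29c-3p stood at 41.6, 51.9 and 35.2 CPM at 24 h and at 122, 538 and 71.7 CPM at 48 h (log2 fold change 2.51, edgeR adjusted p = 0.413). miR-29b-3p stood at 16.02, 27.5 and 8.81 CPM at 24 h and at 40.7, 132 and 31.8 CPM at 48 h (log2 fold change 1.96, edgeR adjusted p = 0.438). miR-29a-3p, the most abundant member, stood at 2332, 3276 and 2771 CPM against 3616, 8675 and 3146 CPM. miR-29a-5p, of the opposite arm, stood at 6.46, 10.1 and 5.18 CPM against 14.7, 52.2 and 19.8 CPM (log2 fold change 1.98, edgeR adjusted p = 0.413). Library 2 of 48 h was the highest in these 4. Without it the list's median was 0.74, with 5 of 6 positive, and the log2 fold changes of miR-29c-3p, miR-29b-3p, miR-29a-5p and miR-29a-3p were 1.15, 1.02, 1.22 and 0.26.

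The miR-17-92 cluster and its paralogues drive proliferation. Of 10 tested members, 8 had positive fold changes, the median was 1.65, and 3 did not overlap, or 6 without library 3 of 48 h. miR-19a-3p stood at 2.07, 6.13 and 5.18 CPM at 24 h and at 11.0, 103 and 6.91 CPM at 48 h. miR-19b-3p stood at 386, 913 and 645 CPM at 24 h and at 797, 8400 and 570 CPM at 48 h, so library 2 of 48 h was far above the rest. Without that library the log2 fold change of miR-19a-3p was 0.98 in place of 3.18, and the list's median was 0.06 with 7 of 10 positive. miR-25-3p and miR-106b-5p were among the members whose groups did not overlap. The most abundant member, miR-92a-3p, had a log2 fold change of -0.52.

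The list of miR-15, miR-16, miR-103 and miR-107, of which miR-15 and miR-16 brake the cell cycle, was positive in 8 of 8 members with a median of 1.34, and 1 did not overlap, or 6 without library 3 of 48 h. Without library 2 of 48 h the median was 0.19 and 5 of 8 were positive. The miR-30 family, 7 of 7 positive, had a median of 0.73 and 0 members that did not overlap, which became 5 without library 2 of 24 h, 4 without library 3 of 48 h and 2 without library 2 of 48 h. The let-7 family, with 9 members, had a median of 0.36 and 7 positive. Its passenger strands had 7 of 10 positive and a median of 0.62, or 0.16 without library 2 of 48 h; let-7d-3p among them stood at 1636, 879.9 and 4229 CPM at 24 h and at 296, 348 and 1748 CPM at 48 h. The groups of let-7d-3p overlapped, and its log2 fold change of -1.50 was -0.66 without library 3 of 24 h and -2.75 without library 3 of 48 h. The miR-181 family, with 5 tested, had a median of 0.06, and 1 was lower without overlap. The miR-10, miR-99/100 and miR-125 list had 5 of 7 negative and a median of -0.33, or 0.19 without library 3 of 24 h, and 0 that did not overlap.

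The miR-23/27/24 clusters held 4 of 11 tested members with groups higher at 48 h and 1 lower, miR-23a-3p. Besides miR-24-3p, miR-24-1-5p, miR-24-2-5p and miR-23a-5p were higher. miR-23a-5p stood at 17.1, 71.3 and 41.5 CPM at 24 h and at 102, 201 and 77.7 CPM at 48 h, with log2 fold change 1.55. miR-24-2-5p stood at 18.1, 42.9 and 20.2 CPM at 24 h and at 61.6, 81.5 and 48.6 CPM at 48 h. The arms of miR-24 thus lay on the higher side, while the miR-23a arms lay on opposite sides.

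The Dlk1-Dio3 cluster is a large imprinted miRNA cluster on chromosome 12. Of 44 miRNAs in the list, 28 were listed in the 6 libraries and 12 were abundant enough to test; 10 of the 12 had negative log2 fold changes, the median was -1.50, and 6 had groups lower at 48 h that did not overlap. miR-411-5p stood at 69.0, 64.1 and 81.9 CPM at 24 h and at 39.9, 12.4 and 26.0 CPM at 48 h. miR-379-5p stood at 26.4, 17.2 and 34.7 CPM at 24 h and at 4.91, 3.04 and 7.60 CPM at 48 h (log2 fold change -2.33, edgeR adjusted p = 0.424). miR-127-3p stood at 46.5, 35.3 and 42.0 CPM against 27.7, 6.39 and 17.1 CPM. Without library 2 of 48 h the 12 members were all negative, with a median of -1.11 and 6 that did not overlap. With no filter on low counts, which adds members at or near 0, the median was 0. A miRNA could pass the filter by its level in a single group, so a member could be tested for being high at 24 h. Over the 6 silica libraries miR-431-5p and miR-154-5p had means of only 4.30 and 1.66 CPM, with log2 fold changes of -2.90 and -4.08. The positive miR-376c-3p had 3.06 CPM. The counts and the median of the list are thus no test of a direction. In untreated exosomes miR-411-5p stood at 35.4, 3.93 and 28.2 CPM and miR-127-3p at 33.3, 1.20 and 23.8 CPM, below each 24 h library. Untreated miR-379-5p, at 9.13, 1.54 and 26.1 CPM, overlapped with its 24 h libraries.

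The serum, liver and erythroid list, kept as a check because the medium held fetal bovine serum, had 9 of its 11 miRNAs listed in the silica libraries, with miR-144-5p at 0. Of 8 tested members 7 were negative, with a median of -0.75 and 3 that did not overlap, or 5 without library 2 of 24 h. miR-122-5p, the liver miRNA, stood at 1951, 1253 and 2257 CPM at 24 h and at 956, 407 and 1087 CPM at 48 h. miR-451a, the red cell miRNA, stood at 1605, 872 and 3380 CPM at 24 h and at 762, 786 and 409 CPM at 48 h, with a log2 fold change of -1.58 (edgeR adjusted p = 0.458), or -0.96 without library 3 of 24 h. The sum over the 8 tested members was 15284 to 19734 CPM at 24 h, 12680 to 48535 CPM at 48 h and 14178 to 38179 CPM in untreated. The most abundant member was miR-16-5p, which many cell types express. The part of serum in these values, and in the lower imprinted miRNAs, was not tested.

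The epithelial list had 7 of 10 members positive, a median of 0.59 and 3 that did not overlap, among them miR-96-5p at 1099, 796 and 784 CPM at 24 h and 1261, 1371 and 1509 CPM at 48 h. Its most abundant member, miR-183-5p, overlapped. All 11 miRNAs of the list were listed, and the sums over the 10 tested were 7207 to 10478 CPM at 24 h, 6869 to 11431 CPM at 48 h and 5379 to 10490 CPM in untreated. Its median was 0.27 without library 2 of 48 h and 0.93 without library 1 of 24 h. The mesenchymal and endothelial list had 6 of 7 negative with a median of -0.51, and miR-143-3p was lower at 48 h without overlap. All 11 miRNAs of that list were listed, and the sums over the 7 tested were 657 to 1626 CPM at 24 h, 552 to 1060 CPM at 48 h and 442 to 2257 CPM in untreated. The muscle, neuron and lymphocyte list had 5 of 7 positive with a median of 0.43, or 0.36 without library 2 of 48 h over the same 7, -0.20 over all members that pass the filter then, and -0.38 with no filter, and 2 that did not overlap. Of its 11 miRNAs 10 were listed, and the sums over the 7 tested were 426 to 674 CPM at 24 h, 558 to 720 CPM at 48 h and 487 to 827 CPM in untreated. The part of other cell types in these values was not tested.

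The inflammation-induced list, with 13 tested members, had a median of 0.13, 9 positive and 1 that did not overlap, miR-221-3p. miR-155-5p, the miRNA that Toll-like receptor signals induce, stood at 910, 578 and 793 CPM at 24 h and at 879, 1034 and 610 CPM at 48 h, and miR-146a-5p, its counterpart, at 50416, 39239 and 46827 CPM and 65124, 26669 and 57787 CPM. The myeloid list had 9 tested members, 6 negative, a median of -0.38 or 0.05 without library 3 of 48 h, and 1 that did not overlap, miR-140-3p, higher. The fibrosis list had 18 tested, 12 positive, a median of 0.57 and 3 higher and 1 lower that did not overlap (6 higher without library 2 of 24 h and 7 without library 3 of 48 h), and its higher members included miR-29b-3p and miR-29c-3p. That list may hold miRNAs that the study chose from these samples, so it is not independent evidence of a direction.

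miR-532-3p had the lowest p of all tested miRNAs, and its level was 0 in every 24 h library. Its 48 h libraries held 6, 379 and 55 counts, 440 in all, and the untreated libraries 72, 305 and 137. Against the limit of 3 counts over the 24 h group it was at least 100.1-fold higher at 48 h, with an edgeR adjusted p of 0.183, and at least 30.9-fold without library 2 of 48 h, which held most of its counts. Its hairpin lies in an intron of Clcn5 at chrX:7248402-7248497. The other arm, miR-532-5p, stood at 403, 5834 and 6806 CPM at 24 h and at 4968, 169 and 5377 CPM at 48 h, so it varied widely within each time. Of 11 miRNAs in the Clcn5 list, 6 were tested, 5 were positive with a median of 0.72, or 0.20 without library 2 of 48 h, and 2 did not overlap.

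In all, 9 miRNAs had counts in each 48 h library and none at 24 h, and 3 had counts in each 24 h library and none at 48 h. miR-3069-3p held 6, 37 and 10 counts at 48 h, at least 12.1-fold above the limit at 24 h. In the other direction miR-219a-2-3p held 10, 9 and 38 counts at 24 h, at least 27.9-fold above the limit at 48 h, or 11.1-fold without library 3 of 24 h, and miR-1a-3p, the muscle miRNA, held 11, 1 and 8. Those limits cover counting error only. More broadly, 244 miRNAs were listed only at 48 h and 59 only at 24 h; after thinning each library to 2158418 mature counts, 576 ± 90.5 were detected at 24 h and 629 ± 90.3 at 48 h (SD, n = 3), a difference with an exact permutation p of 0.5. Before thinning the means were 598 and 717 (exact permutation p = 0.4).

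Summing counts over miRNAs that share a seed gave 76 families for testing, of which 0 (0%) had an edgeR adjusted p under 0.05 and 3 (3.95%) an unadjusted p under 0.05. In 12 (15.8%) the times did not overlap, 6 (7.89%) each way. The family of miR-294-3p, miR-295-3p and miR-302d-3p, which mark embryonic stem cells, had 0, 0.28 and 0 family CPM at 24 h and 4.35, 4.73 and 3.37 at 48 h (edgeR adjusted p = 0.509). These are low values, and the untreated libraries held 0, 4.11 and 0.61 family CPM, with library 2 in the 48 h range. Here CPM is scaled over seed families. The family of miR-140-3p and miR-497b stood at 240.0, 272 and 193 family CPM at 24 h and at 431, 761 and 465 at 48 h. That of miR-196a-5p and miR-196b-5p, miRNAs of the Hox clusters, stood at 55.7, 54.7 and 182 family CPM at 24 h and at 47.5, 12.5 and 37.1 at 48 h, lower without overlap.

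The ratio of the 5p to the 3p arm of a hairpin does not depend on the scaling of a library. It was tested for 104 hairpins with limma on log2((5p + 0.5)/(3p + 0.5)); 0 (0%) had an adjusted p under 0.05 and 11 (10.6%) an unadjusted p under 0.05. In 18 (17.3%) the times did not overlap, 8 (7.69%) with a higher and 10 (9.62%) with a lower share of 5p at 48 h.

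**Figure D3:**
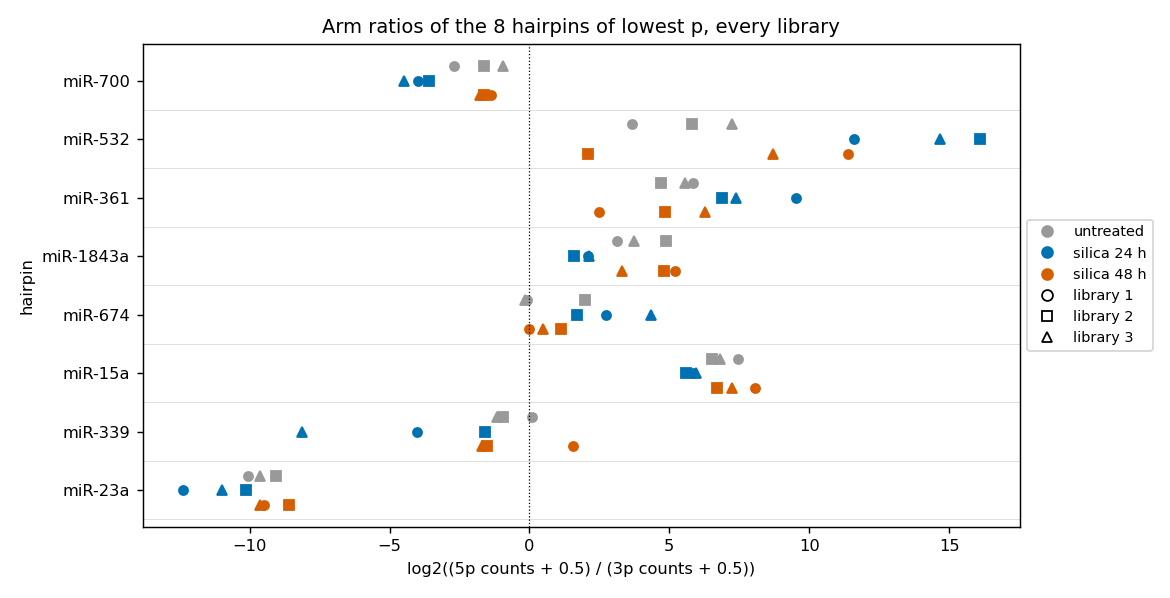
log2 ratio of 5p to 3p counts (0.5 added to each) of the 8 hairpins of lowest p in each library, with colour for the group and shape for the library number. In miR-700 the 3 libraries of 48 h lie together, above all 3 of 24 h.

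miR-700 had the lowest p of the arm ratios. Its 5p arm made up 5.85%, 7.65% and 4.17% of its counts at 24 h and 27.8%, 24.5% and 22.7% at 48 h. The untreated libraries, at 13.2%, 24.3% and 34.4%, were all above those of 24 h. The difference of the log2 ratio was 2.44 (SE 0.66, limma adjusted p = 0.366). In miR-1843a the 5p share was 81.3%, 75.0% and 81.6% at 24 h and 97.7%, 96.7% and 91.0% at 48 h, and in miR-674 it was 87.1%, 76.7% and 95.6% against 49.9%, 68.6% and 58.2%. For miR-674 the higher 3p arm described above thus had 5p counts of 262, 2886 and 302 beside 3p counts of 263, 1320 and 217 at 48 h. In miR-361 it was 100%, 99.3% and 100% against 84.9%, 96.7% and 99.0%, and in miR-15a 98.4%, 98.0% and 98.6% against 99.7%, 99.1% and 99.4%, each without overlap. The 3p counts of miR-361 were only 0, 2 and 0 at 24 h and 36, 52 and 2 at 48 h. Its 5p counts were 364, 297 and 83 at 24 h and 202, 1515 and 193 at 48 h. The 3p counts of miR-15a were 11, 31 and 4 at 24 h and 4, 220 and 10 at 48 h. Both differences thus rest in part on a few counts. All 8 hairpins had a limma adjusted p of 0.366. Over all hairpins, the 5p share of counts was 59.7%, 65.3% and 61.9% at 24 h and 62.2%, 55.3% and 57.0% at 48 h.

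Among the 14 RNA classes of the deposited tables, 6 (42.9%) had libraries that did not overlap between the times, with an exact two-sided permutation p of 0.1, the smallest 3 against 3 allows, and a Benjamini-Hochberg p of 0.233. The exon class made up 10.5% ± 0.50 of counted reads at 24 h and 6.71% ± 0.69 at 48 h (SD, n = 3). The intron class was 14.1% ± 2.97 against 9.84% ± 1.06, and the intergenic class 7.33% ± 1.64 against 4.54% ± 0.68. snoRNA, which guide the modification of ribosomal RNA, made up 0.642% ± 0.081 against 0.360% ± 0.10. The precursor class stood at 1.86% ± 0.25 at 24 h and 2.89% ± 0.61 at 48 h, and the repeat class at 23.9% ± 0.49 and 27.2% ± 0.79. Untreated exosomes held 7.71% ± 0.22 exon and 24.4% ± 2.09 repeat reads. Mature miRNA, at 33.9% ± 5.15 and 39.8% ± 4.31, overlapped (exact permutation p = 0.3). Shares of a total are tied to each other. The ratio of repeat to mature reads was 0.635, 0.657 and 0.853 at 24 h and 0.770, 0.594 and 0.705 at 48 h, and overlapped. The ratio of precursor to mature reads overlapped as well. Set against mature reads, the exon, intron, intergenic and snoRNA classes were still lower at 48 h without overlap.

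**Figure D4:**
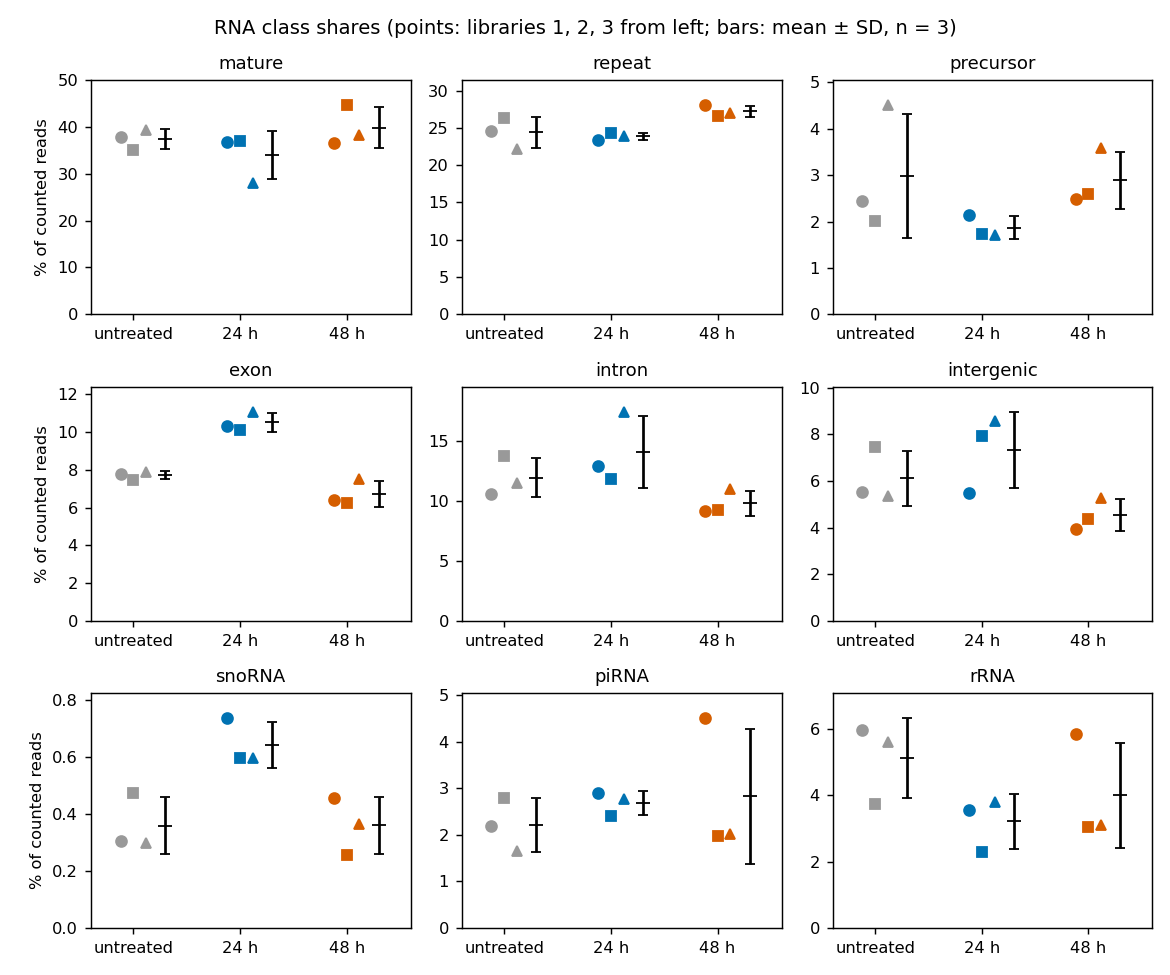
Share of counted reads (%) of 9 of the 14 RNA classes in each library, with points for libraries 1, 2 and 3 from left to right and bars for the mean ± SD (n = 3). The exon share is 10.1% to 11.1% in the 24 h libraries and 6.24% to 7.5% in those of 48 h.

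Of 225 tested features of the other RNA classes, 0 (0%) had an edgeR adjusted p under 0.05, 17 (7.56%) an unadjusted p under 0.05, and 36 (16%) did not overlap, 17 (7.56%) higher and 19 (8.44%) lower. Values are CPM over these features. The lowest p was that of the small nucleolar RNA family sR55 (the Rfam name given in the files), with 6, 14 and 269 counts at 24 h and 0 in each 48 h library. Against the limit of 3 counts over the 48 h group it was at least 91.6-fold higher at 24 h (edgeR adjusted p = 0.377), or 8.37-fold without library 3 of 24 h, which held most of its counts. SNORD41, a small nucleolar RNA, stood at 7238, 1302 and 1576 at 24 h and at 451, 532 and 993 at 48 h (log2 fold change -2.36, edgeR adjusted p = 0.450), and the fold change was -0.68 without library 1 of 24 h and -1.62 without library 1 of 48 h. The SNORD55/SNORD39 family stood at 8565, 4946 and 2990 at 24 h and at 1481, 959 and 827 at 48 h, a log2 fold change of -2.34 that was -1.52 without library 1 of 24 h. The piRNA mmu_piR_000935 had the lowest p on the higher side, at 271, 8325 and 2258 at 24 h and 365404, 6189 and 32284 at 48 h, so library 1 of 48 h was far above the rest and the groups overlapped. Its log2 fold change was 5.22, 3.15 without that library and 6.70 without library 2 of 24 h.

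The base composition of the miRNAs varied with the direction of the difference, which is a description without a test. Sequences were matched for 937 of the 1101 listed miRNAs and 402 of the tested ones. Of those 402, 46 were higher and 38 lower at 48 h without overlap, against which the counts below are to be read. Among the 145 with the fewest G and C bases (at most 45.45%), the median log2 fold change was 0.59, and 27 were higher and 5 lower without overlap. Among the 130 with the most (over 56.52%), 58 were positive, the median was -0.19, and 4 were higher and 17 lower without overlap. The correlation across miRNAs, which share libraries and depth, was r = -0.25 and rho = -0.32, and r was -0.23 to -0.31 with each silica library left out. Within single libraries, r of the G and C share with log2(CPM + 1) was -0.128, -0.17 and -0.116 at 24 h. At 48 h it was -0.246, -0.255 and -0.162, so the times overlapped. The G and C share weighted by level was 47.37%, 46.2% and 47.47% at 24 h and 46.13%, 46.3% and 47.05% at 48 h, and overlapped too. Of the 55 tested with the bases GGAG, 1 was higher and 12 were lower without overlap, with a median of -0.25 against 0.26 in the 347 without. The 12 included weak miRNAs that could pass the filter by their 24 h level alone. miR-7050-5p and miR-7030-5p had means of 3.10 and 2.95 CPM at 24 h and 0.10 and 0.48 CPM at 48 h. Others were abundant, such as miR-139-3p with means of 4037 and 2056 CPM. The split is thus no test of the motif. Without library 1 of 48 h the median with GGAG was 0.13, against 0.22 without the bases; it was -0.62 without library 3 of 48 h, and without library 2 of 48 h it was -0.17, against -0.05 without the bases. GGAG was searched on the strand of the miRNA and is held by 14.5% of the 937, and 29 of the 55 lay in the tertile richest in G and C. In that tertile the medians with and without GGAG were -0.21 and -0.19. Of its 29 with GGAG, 0 were higher and 8 lower without overlap, and of its 101 without, 4 were higher and 9 lower. In the middle tertile the medians were -0.38 in the 23 with GGAG and 0.03 in the 104 without. The lowest tertile held only 3 with GGAG, with medians of 0.85 and 0.57.

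**Figure D5:**
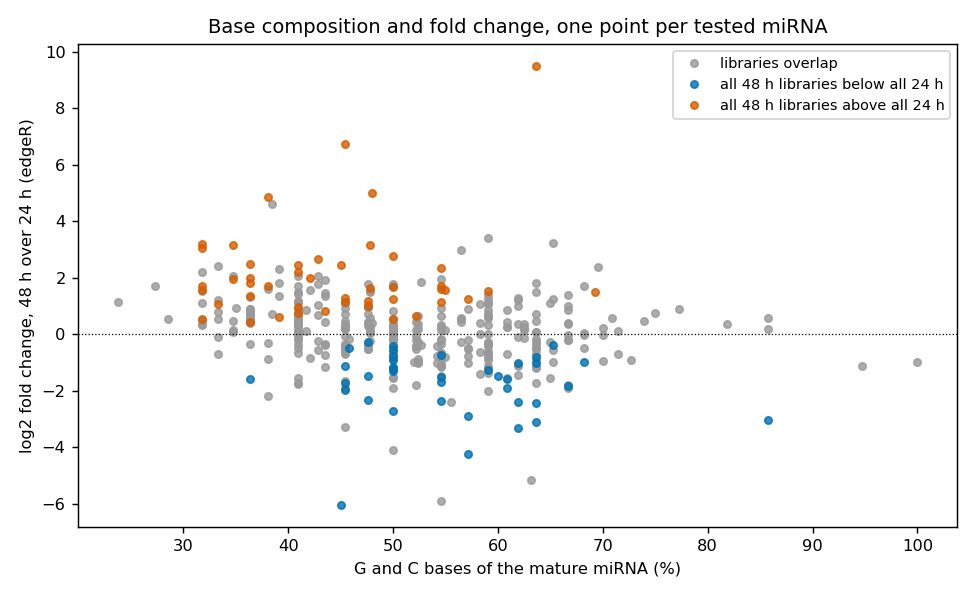
log2 fold change (48 h over 24 h, edgeR) against the share of G and C bases (%) of each of the 402 tested miRNAs with a sequence, with colour for miRNAs whose libraries did not overlap. Points with all 48 h libraries above those of 24 h lie mostly on the left.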

How the data were processed

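Small RNA was measured in 9 exosome libraries, of which the 6 of silica enter the comparison. Per the file headers, each deposited table gives the count of reads per small RNA, and a further column of the authors, headed TPM, is that count scaled to RPM (matched within 0.005); only counts were tested. Tools named in the submitters' processing notes were Trim Galore, Bowtie and HTSeq, with mm10 as the genome build; the handling of reads that match several miRNAs was not stated. Mature miRNAs are listed from 1 count, so an absent one was taken as 0.

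A single edgeR 4.0.16 quasi-likelihood fit over all 9 libraries (R 4.3.3, TMM factors 0.829 to 1.16, filterByExpr with minimum count 10, which kept at least 99.96% of mature counts, 6 residual degrees of freedom) gave the contrast of 48 h minus 24 h, adjusted by Benjamini-Hochberg with a threshold of 0.05. Arm ratios were fitted with limma 3.58.1, with trend. Class shares and detection used exact permutation tests. Alternatives were DESeq2 1.42.0, limma-voom, other scalings and filters, a replicate block and leaving out each library. The scripts were tested on simulated data. The miRNAs named are the 10 of lowest p in each direction with at least 10 CPM, the 10 most abundant, the most abundant of each list, and those with counts at only 1 time; miR-106b-5p, miR-25-3p, miR-19b-3p, miR-23a-5p, miR-24-1-5p, miR-24-2-5p, miR-122-5p, miR-143-3p, miR-155-5p, miR-140-3p, miR-221-3p and miR-223-3p were picked with their values already seen. The members and lists were chosen with earlier results of these data known. Coordinates are RefSeq's on GRCm38.p6, the build mm10.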

Additional observations from a re-analysis of the deposited data

How the results depend on the processing

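The count of called miRNAs was 0 in the fit reported, 16 with no filter, 6 with the DESeq2 Wald test, and 0 with limma-voom, other scalings and the 6 silica libraries alone. With a library left out it was 0 to 1, the 1 being miR-532-3p without library 1 of 48 h. The features of other RNA classes gave 7 with no filter and 4 with DESeq2. The replicate number was not taken to pair the libraries, since r of the deviations from the group means was -0.07 for number 1. It was 0.29 and 0.25 for numbers 2 and 3, the highest of the 9 pairs. By chi-squared per degree of freedom of the counts, each untreated library differed least from the 48 h library of its number. By correlation of log2 CPM this held for numbers 2 and 3 only. Untreated library 1 correlated best with library 3 of 48 h (0.939, against 0.919 with library 1 of 48 h). These are hints from the data and not the design. A replicate block in edgeR gave 3 called miRNAs, miR-106b-5p, miR-2137 and miR-532-3p, and 0 seed families and arm ratios. With the block 82 miRNAs had an unadjusted edgeR p under 0.05, 42 higher and 40 lower, against 44 in the fit reported. For seed families the count was 13 against 3. The results thus depend on whether the libraries are paired, which the labels do not state. Detection of at least 10 counts reversed the difference to -18.67.

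Small fold changes reversed: miR-99a-5p was 0.088 with no filter, 0.03 by voom, 0.05 in the 6 libraries, 0.016 with the block and 0.227 scaled to all counted reads. In that order of settings miR-199a-3p was 0.172, 0.102 and 0.039, and 0.414 by all counted reads. miR-93-5p was 0.06 with no filter, 0.011 in the 6 libraries and 0.19 by all counted reads, and miR-320-3p 0.02 and 0.231 without filter and by all counted reads. By all counted reads miR-191-5p was 0.085 and miR-183-5p 0.011. With the block miR-146a-5p was -0.008, miR-181a-5p -0.036, miR-501-3p -0.024 and miR-532-5p 0.698. By voom miR-181a-5p was -0.101 and miR-138-5p -0.05; with upper-quartile factors miR-501-3p was -0.066. As log2 ratios to mature miRNA, the classes other Rfam, hairpin, piRNA, repeat and tRNA were -0.297, -0.342, -0.273, -0.047 and -0.013. The causes were not tested.

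Leaving out each library gave the GUGCAAA family -0.028 to 2.931, let-7a-1-3p -0.006 to 1.19, miR-126a-3p -0.642 to 0.029, miR-138-5p -0.76 to 1.008, miR-146a-5p -0.051 to 0.418, miR-16-5p -0.115 to 1.605, miR-181a-5p -0.2 to 0.344, miR-181b-5p -0.424 to 0.105, miR-183-5p -0.583 to 0.078, miR-191-5p -0.456 to 0.088, miR-199a-3p -1.909 to 1.98, miR-320-3p -0.59 to 0.486, miR-501-3p -0.381 to 0.514, miR-532-5p -0.881 to 0.247, miR-93-5p -0.158 to 0.034 and miR-99a-5p -0.164 to 0.283. The class shares ranged from -0.237 to 0.337 (other Rfam), -0.0008 to 0.0005 (hairpin), -0.698 to 0.563 (piRNA), -0.132 to 1.259 (rRNA), -0.0388 to 0.0078 (snRNA) and -0.048 to 0.217 points (tRNA).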

Other observations

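Neighbouring hairpins on the same strand were grouped with a gap of at most 10000 bases, which gave 33 groups with tested members, described without a test. The groups named here are a selection from the 33. In the group of Mir29b-2 and Mir29c (chromosome 1) 3 of 3 miRNAs were positive, with a median of 1.96. In that of Mir141 and Mir200c (chromosome 6), hairpins of the epithelial miR-200 family, 2 of 2 were positive and neither overlapped between the times, with a median of 1.51. The other group of that family, Mir200a, Mir200b and Mir429 (chromosome 4), had 2 of 3 positive and a median of 0.55. All 3 of its miRNAs overlapped between the times. The group of Mir379 and Mir411 (chromosome 12) had 2 of 2 negative without overlap and a median of -1.90, and that of Mir127 and Mir431 had a median of -2.09. A larger group on chromosome 12, from Mir154 to Mir496a, had 6 of 7 negative and a median of -1.53, and only 1 of the 7 did not overlap. The group of Mir34b and Mir34c (chromosome 9), targets of p53, had 2 of 2 negative with a median of -2.07, and its libraries overlapped.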
